A study of Mus musculus with 6 samples.

Results

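The genes described here are 10 transcription factor genes grouped as immediate early genes, Fos, Fosb, Fosl1, Fosl2, Jun, Junb, Jund, Atf3, Egr1 and Myc. The grouping is loose, since Fosl1 is itself induced by AP-1 and Jund is present in resting cells. The 10 genes are part of 55536 genes counted by RNA-seq in satellite cells, the stem cells of skeletal muscle. They were chosen by name and found by their GENCODE M21 symbols, and no threshold on a measured value was used. The choice of these genes and of the gene lists below was made with earlier results of these data known. Counts of called genes set beside the shares over all genes are therefore descriptions. Expression was compared between 3 cKO samples (Pax7CreErt2;Hira fl/fl) and 3 control samples (Pax7CreErt2;Hira fl/+ in the study's methods, described as WT in the sample labels). HIRA is a chaperone that places histone H3.3 outside DNA replication, and the paper names DAXX as another H3.3 chaperone, at other loci. All mice were C57BL/6J males 8 to 12 weeks old that received tamoxifen, and by the study's methods the controls carried the same Pax7-driven Cre and 1 floxed allele. Cells were sorted by FACS from tibialis anterior muscle 5 days after a BaCl2 injury (CD34+, ITGA7+, CD45-, TER119-, SCA1-) and were then cultured for 48 h at low density with 20% serum and basic FGF, both of which are classical inducers of the genes studied. Deletion depends on Pax7 being active at the time of tamoxifen, and neither the labels nor the methods say whether each RNA sample came from a separate mouse, so p-values measure the spread between these samples, which may be technical.

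Immediate early genes are transcribed within minutes of a growth factor or stress signal without new protein synthesis, through MAP kinases that act on SRF, its ternary complex partners and the CREB and ATF factors already present in the cell. FOS and JUN proteins pair through leucine zippers to form AP-1, which binds the palindrome TGANTCA, EGR1 is a zinc finger activator, and MYC pairs with MAX on E-boxes to drive growth and ribosome production. In satellite cells these genes are part of the activation that takes a resting stem cell into the cell cycle, and dissociation of muscle is known to induce them.

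In cKO cells Myc, Egr1 and Fosl1 were upregulated, Jund was downregulated, and Fos, Fosb, Fosl2, Jun, Junb and Atf3 did not pass the test. The changes were small, from 24.9% higher for Fosl1 to 11.2% lower for Jund. With edgeR's quasi-likelihood test and an adjusted p under 0.05, 3 of the 10 genes were higher in cKO, where 9.38% of all 22404 genes tested were called higher, and 1 was lower, against 6.46% of all genes tested. In either direction 4 of 10 were called, against a background of 15.8%. Fos, Fosl1, Egr1 and Myc had every cKO sample above every control sample in CPM, that is, counts scaled to library size, as did 20.3% of all genes tested. None of the 10 had every cKO sample below every control sample, against 11.1% of all genes tested, and 6 overlapped. The median log2 fold change of cKO over control was 0.08 over the 10 genes and -0.001 over all genes tested. All 10 genes passed the filter on low counts, with between 94 and 19039 counts in a sample. Without control replicate 3 the number of higher genes was 1, and Jund was past the threshold under 6 of 12 alternatives.

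**Figure D1:**
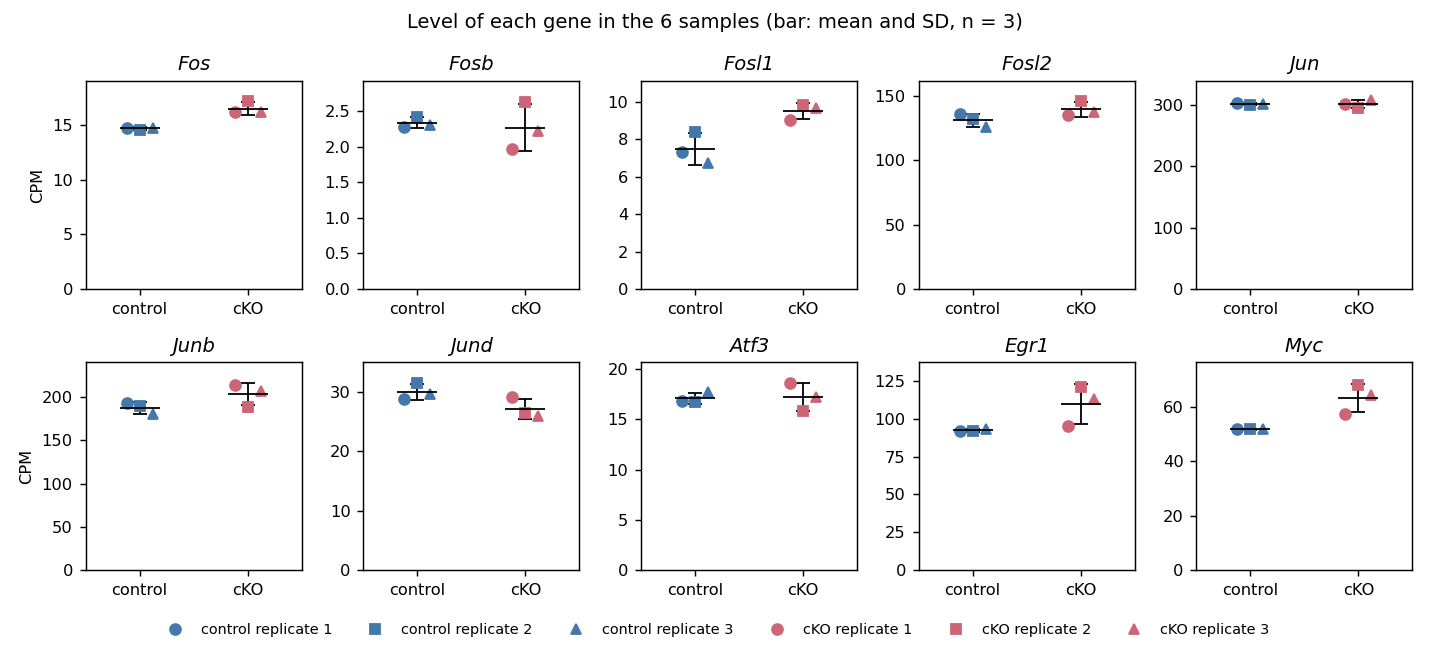
CPM of the 10 genes in each of the 6 samples, with 1 panel per gene and an axis from 0. Points are samples, with the replicate number as the marker shape, and bars are the mean and SD (n = 3); the controls of Myc lie between 51.8 and 52.1 CPM and all cKO samples between 57.6 and 68.0 CPM, while the Jun groups overlap.

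The libraries held 47944477 to 63323577 counts. Hira, the targeted gene, had 6.63, 5.50 and 5.55 CPM in the controls and 3.36, 4.95 and 4.87 CPM in cKO replicates 1, 2 and 3. Its log2 fold change was -0.43 ± 0.12 (SE, n = 3 and 3) with an edgeR adjusted p of 0.0237, which was 0.104 without control replicate 1. This check by counts over the whole gene is limited. Of the exonic bases of Hira, 44.7% lie in Gm28539 on the same strand, which leaves 55.3% that belong to Hira alone. Of its 75-base windows, 63.6% recur in that gene and 42.2% span exon junctions. The controls also carried 1 floxed allele. For satellite cells of this cross the paper reports strongly reduced Hira mRNA by RT-qPCR and no detected HIRA protein. Markers of cell types were fixed as lists, and over all genes tested 9.38% were called higher and 6.46% lower. Satellite cell and myoblast markers were all detected, and 8 of 11 fell and 1 rose. Their summed level was 7316 to 7446 CPM in control and 6494 to 6951 CPM in cKO. All 18 macrophage markers rose, with summed levels of 155 to 162 CPM in control and 326 to 383 CPM in cKO. Of the fibroblast markers, 7 of 11 tested rose and 4 did not pass the test. Their sum went from 1256 to 1337 CPM in control to 1686 to 1878 CPM in cKO. Of the endothelial markers, 5 of 12 rose and 7 did not pass the test, and their sum went from 23.4 to 25.3 CPM to 33.8 to 40.7 CPM. Of the smooth muscle and pericyte markers, 7 of 8 rose and Notch3 fell. Their sum went from 3247 to 3306 CPM to 3540 to 3692 CPM. Each sum is weighted toward its most abundant genes. Means in control and cKO were 3199 and 2925 CPM for Des, a satellite list gene, and 2929 and 3180 CPM for Acta2, a smooth muscle gene. Neutrophil and lymphocyte markers summed to at most 1.04 CPM, with S100a9 and Ms4a1 at 0 in all samples. In RNA from whole cultures, a change in the number of cells of a type and a change in RNA per cell cannot be told apart. For endothelial and other non-muscle lineage genes, the paper proposes increased expression within satellite cells that lack Hira. It reports VE-Cadherin (Cdh5) staining in such isolated cells. Which cells of the cultures expressed the markers was not tested, nor was the part of the markers in the values of the 10 genes.

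All 460 genes whose exonic bases all lie opposite another gene's exons were listed at 0 in every sample, against 30.5% of the 43640 genes that share no exonic base, which is what remains when strand is ignored and reads over shared bases are dropped. Read that way, Fosl1 was counted over 870 of its 2033 exonic bases, since 57.2% of them lie opposite Ccdc85b, and Jund over 791 of 1668 bases, since 52.6% lie opposite Gm11175. Jun and Junb kept 92.7% and 92.5% of their exonic bases, and the other 6 genes kept all of them. No 75-base window of the longest coding transcript of the 10 genes occurs, in the same orientation, in an annotated transcript of another gene. Reads that match exactly were therefore not shared with the annotated transcript of a paralog. The opposite orientation and the rest of the genome were not searched.

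Levels were compared between genes only per length, as CPM per kb of exonic bases that belong to 1 gene. In control cells the order was Jun at 102 ± 0.437 (SD, n = 3), Junb at 88.1 ± 3.31, Jund at 37.8 ± 1.71, Egr1 at 20.6 ± 0.206, Myc at 19.1 ± 0.0599, Fosl2 at 13.6 ± 0.506, Fosl1 at 8.59 ± 0.960, Atf3 at 7.91 ± 0.249, Fos at 6.27 ± 0.0486 and Fosb at 0.373 ± 0.0118 CPM per kb. Only the neighbours Fosl1 and Atf3 overlapped in their control samples. The level of Jun was above that of 96.6% of the genes tested, and that of Fosb above 19.7%. The order depends on the length used: divided by the longest coding transcript, Junb came first at 104 and Jun second at 94.7 CPM per kb, Myc was at 22.2 and Egr1 at 20.6, in the reverse order, Fosl2 at 20.1, Jund at 17.9 and Fosl1 at 4.01 CPM per kb.

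Fos (ENSMUSG00000021250, chromosome 12 of mm10, 85473890 to 85477273, plus strand) encodes the founding AP-1 partner of JUN and is the standard reporter of a serum response. Control samples gave 836, 925 and 910 counts, cKO samples 776, 1015 and 902, or 14.8, 14.6 and 14.8 CPM against 16.2, 17.2 and 16.2 CPM. Every cKO sample was above every control sample, by a margin that did not pass the threshold over all genes. cKO over control gave a log2 fold change of 0.14 ± 0.05 (SE; 95% interval 0.04 to 0.24) with an edgeR adjusted p of 0.0679. The adjusted p was 0.0359 with scaling to total counts alone and 0.0487 with a filter at 1 CPM, and lay between 0.064 and 0.241 under the 10 other alternatives. The 3 controls lay closer together than counting error alone gives, with a coefficient of variation (CV) of 0.776% against 3.35%.

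The promoter of Fos is shown because its start site is the same in RefSeq and GENCODE and because it holds known signal-response elements. The 250 bases before the start, chr12:85473640-85473889 on the plus strand of GRCm38.p6 (RefSeq), read 5′ to 3′ with matches to the searched motifs in capitals:
Fos: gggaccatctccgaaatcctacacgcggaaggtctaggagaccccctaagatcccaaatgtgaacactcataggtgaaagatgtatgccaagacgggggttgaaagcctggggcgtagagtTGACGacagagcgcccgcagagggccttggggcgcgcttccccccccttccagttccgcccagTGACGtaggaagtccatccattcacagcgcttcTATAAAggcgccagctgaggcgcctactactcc
Motifs searched on both strands were the AP-1 site TGANTCA, the cAMP response element (CRE) TGACGTCA and its 5′ core TGACG, which lies within the CRE, the JUN site TGACATCA, the E-box CACGTG, the EGR site GCGNGGGCG, which is not capitalised, the TATA box TATAAA and the CArG box bound by SRF. The Fos window held 2 CRE cores, 129 and 66 bases before the start, and a TATA box 33 bases before it. It held no match to the CArG box or the AP-1 site. Bases further upstream were not searched, so the lack of a match covers this window alone. Of 32851 mouse promoter windows of the same length, 17.8% hold the core, 12.4% the TATA box, 6.75% the AP-1 site, 6.02% the E-box, 4.7% the EGR site, 2.93% the JUN site, 1.55% the CRE and 1.47% the CArG box. A window was found for 7 of the 10 genes, which leaves out Fosl1, Egr1 and Myc, the 3 genes called higher in cKO.

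Fosb (ENSMUSG00000003545, chromosome 7, 19302696 to 19310051, minus strand), whose spliced form DeltaFosB is known for its stability, was the lowest of the 10 genes, with 129, 153 and 141 counts in the control libraries and 94, 155 and 124 in the cKO libraries. The groups overlapped, at 2.33 ± 0.0739 CPM (SD, n = 3) in control and 2.27 ± 0.332 CPM (SD, n = 3) in cKO. Its log2 fold change was -0.06 ± 0.12 (95% interval -0.32 to 0.20) with an edgeR adjusted p of 0.831, and its sign turned to 0.03 without cKO replicate 1. At this depth counting error alone gives a CV of 8.97% in cKO, and the interval reaches past the size of the Myc estimate on its lower side.

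Fosl1 (ENSMUSG00000024912, chromosome 19, 5447547 to 5455946, plus strand) encodes FRA1, the FOS protein without a strong activation domain that is itself induced by AP-1. Its counts were 413, 531 and 414 in the controls against 432, 582 and 538 in cKO, or 7.30, 8.39 and 6.74 CPM against 9.01, 9.84 and 9.64 CPM. Control replicate 2 came closest to the cKO group, and the groups did not overlap. The log2 fold change of 0.32 ± 0.08 (95% interval 0.15 to 0.49) was the largest of the 10, with an edgeR adjusted p of 0.0105. Leaving out control replicate 3 gave a log2 fold change of 0.25 with an edgeR adjusted p of 0.0681, and the other 11 alternatives stayed past the threshold. Ccdc85b, the gene on the opposite strand, had a log2 fold change of 0.14 with an edgeR adjusted p of 0.123.

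Fosl2 (ENSMUSG00000029135, chromosome 5, 32135801 to 32157842, plus strand) encodes FRA2. It had 136, 132 and 126 CPM in control and 135, 146 and 138 CPM in cKO, which overlap at cKO replicate 1. Its log2 fold change was 0.06 ± 0.04 (95% interval -0.02 to 0.14) with an edgeR adjusted p of 0.321, and no alternative passed the threshold.

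Within the FOS family the make-up of the summed level per kb shifted toward Fosl1. Fosl1 made up 28.9%, 32.2% and 28.2% of it in the controls and 32.9%, 33.2% and 34.1% in cKO, without overlap. Fosl2 made up 48.2%, 45.7% and 47.5% against 44.2%, 44.2% and 43.7%, and remained the largest share in every sample. The share of Fos differed little, at a mean of 21.8% in control and 21.5% in cKO, and that of Fosb was 1.30% and 1.11%. The summed FOS level was 29.1, 29.9 and 27.4 CPM per kb in control and 31.5, 34.1 and 32.5 CPM per kb in cKO. These shares are descriptions with no test, and the share of Fosl1 rests on the bases left after the overlap with Ccdc85b.

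**Figure D2:**
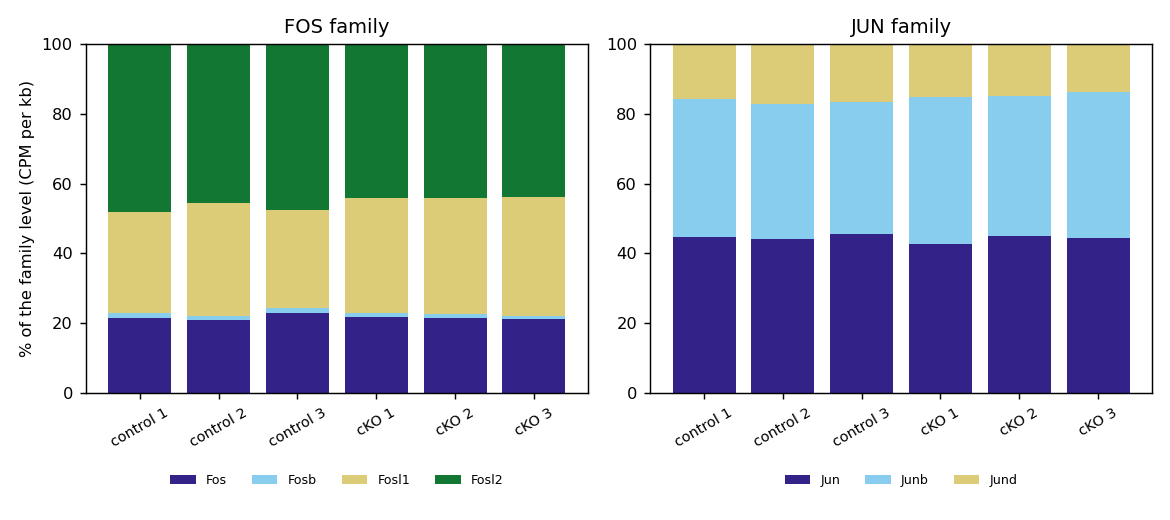
Share of each gene in the summed level of the FOS family (left) and the JUN family (right), in percent of CPM per kb of unshared exonic bases, with 1 stacked bar per sample. Fosl2 is the largest FOS share, at 43.7% to 48.2%, Fosb the smallest, and the share of Jund is 15.9% to 17.2% in control and 14.0% to 15.3% in cKO.

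Jun (ENSMUSG00000052684, chromosome 4, 95049034 to 95052222, minus strand), a single-exon gene and the central AP-1 partner, had 303, 301 and 302 CPM in control and 302, 296 and 308 CPM in cKO. The samples of both groups lay on top of each other, with 14460 to 19039 counts each. The test gave a log2 fold change of -0.02 ± 0.03 with an edgeR adjusted p of 0.687, and its 95% interval of -0.09 to 0.04 is the narrowest of the 10. A change as large as the estimate for Myc, Egr1 or Fosl1 lies outside that interval. With scaling to total counts alone the log2 fold change was 0.00034, so no direction can be given.

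The promoter of Jun is shown for comparison with that of Fos, since both start sites are the same in RefSeq and GENCODE and the genes are induced by partly different factors. The 250 bases before the start, chr4:95052223-95052472 on the minus strand of GRCm38.p6 (RefSeq), hold a JUN site 45 bases before the start, in capitals, the element known to bind dimers of JUN and ATF2:
Jun: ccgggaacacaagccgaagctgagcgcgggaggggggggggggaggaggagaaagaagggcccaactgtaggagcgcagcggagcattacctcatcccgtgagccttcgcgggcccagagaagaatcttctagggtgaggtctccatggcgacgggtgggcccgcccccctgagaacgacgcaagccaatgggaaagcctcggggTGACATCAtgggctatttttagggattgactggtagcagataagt
This window held no match to the AP-1 site or the CRE core, and the Fos window held no JUN site. Junb is shown as the JUN gene whose estimate was above 0, although it did not pass the test. Its window, chr8:84978749-84978998 on the minus strand, holds a CRE core 106 bases before the RefSeq start, which lies 30 bases from that of GENCODE:
Junb: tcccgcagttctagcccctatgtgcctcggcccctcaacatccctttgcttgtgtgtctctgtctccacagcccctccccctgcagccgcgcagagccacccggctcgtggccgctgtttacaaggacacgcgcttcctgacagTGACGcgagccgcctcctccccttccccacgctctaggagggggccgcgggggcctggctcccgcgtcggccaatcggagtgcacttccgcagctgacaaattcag
Of the other windows, that of Fosb held a CRE core and an EGR site 60 and 50 bases before the start, that of Fosl2 an EGR site at 79 bases, that of Atf3 a CRE core on the opposite strand at 7 bases, and that of Jund none of the motifs. The RefSeq starts of Fosl2, Jund and Atf3 lie 671, 1210 and 34706 bases from the GENCODE starts. The matches describe these letters alone.

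Junb (ENSMUSG00000052837, chromosome 8, 84974484 to 84978718, minus strand) encodes a JUN protein that can restrain JUN activity. It had 193, 190 and 180 CPM in control and 214, 189 and 207 CPM in cKO. cKO replicate 2 lay within the control range and the other 2 cKO samples above it. The log2 fold change was 0.09 ± 0.05 (95% interval -0.002 to 0.19) with an edgeR adjusted p of 0.194. Without cKO replicate 2 it was 0.15 with an edgeR adjusted p of 0.00849, the 1 alternative of 12 that passed the threshold.

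Jund (ENSMUSG00000071076, chromosome 8, 70698949 to 70700616, plus strand) encodes the JUN protein that is present in resting cells and is known to slow growth in fibroblasts. It had 28.8, 31.4 and 29.5 CPM in control and 29.0, 26.4 and 25.9 CPM in cKO. cKO replicate 1 lay within the control range, and the other 2 cKO samples lay below it. The test gave a log2 fold change of -0.17 ± 0.05 (95% interval -0.28 to -0.06) with an edgeR adjusted p of 0.0306. Among the alternatives under which the call was lost, the edgeR adjusted p was 0.0631 with scaling to total counts alone, 0.166 and 0.0744 without control replicates 2 and 3, and 0.075 and 0.122 without cKO replicates 2 and 3. Its share of the JUN family level was 15.9%, 17.2% and 16.7% in control and 15.3%, 15.0% and 14.0% in cKO. The summed JUN level overlapped, at 224 to 231 CPM per kb in control and 222 to 239 CPM per kb in cKO. These shares are descriptions with no test. That of Jund depends on the length used, here the 791 of 1668 exonic bases left after the overlap with Gm11175.

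Atf3 (ENSMUSG00000026628, chromosome 1, 191170296 to 191218039, minus strand), a stress-induced bZIP factor that pairs with JUN proteins and is known in damaged and activated satellite cells, had 16.8, 16.7 and 17.7 CPM in control and 18.6, 15.8 and 17.2 CPM in cKO. The cKO samples lay on both sides of the controls. Its log2 fold change was -0.01 ± 0.06 (95% interval -0.14 to 0.12) with an edgeR adjusted p of 0.928. Its sign changed with the scaling and with the samples, to 0.01 with scaling to total counts alone and to 0.05 without cKO replicate 2.

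Egr1 (ENSMUSG00000038418, chromosome 18, 34859823 to 34864984, plus strand) encodes a zinc finger factor induced by SRF and its ternary complex partners. Its counts were 5178, 5823 and 5730 in the controls against 4572, 7174 and 6286 in cKO, or 91.6, 92.0 and 93.3 CPM against 95.4, 121 and 113 CPM. The controls lay close together, cKO replicate 1 was just above them, and cKO replicates 2 and 3 were far above. The log2 fold change was 0.23 ± 0.06 (95% interval 0.10 to 0.35) with an edgeR adjusted p of 0.0161. The SD was 0.925 CPM in control and 13.2 CPM in cKO, where counting alone gives a CV of 1.29%, so the cKO samples differed from each other by more than counting error. Without control replicates 2 and 3 and without cKO replicates 2 and 3 the edgeR adjusted p was 0.0633, 0.0572, 0.0648 and 0.088, and the log2 fold change was 0.15 without cKO replicate 2 and 0.32 without cKO replicate 1.

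Myc (ENSMUSG00000022346, chromosome 15, 61985391 to 61990374, plus strand), the E-box factor that drives cell growth, was counted 2932, 3282 and 3200 times in the controls and 2763, 4025 and 3589 times in cKO. In CPM this was 51.8, 51.8 and 52.1 against 57.6, 68.0 and 64.3. Every cKO sample was above every control sample, and cKO replicate 1 was the lowest of the 3, as for Egr1. The log2 fold change was 0.26 ± 0.05 (95% interval 0.16 to 0.37), with an edgeR adjusted p of 0.00121. Myc was past the threshold under all 12 alternatives, with log2 fold changes from 0.21 to 0.32 and adjusted p from 8.79e-09 to 0.012.

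**Figure D3:**
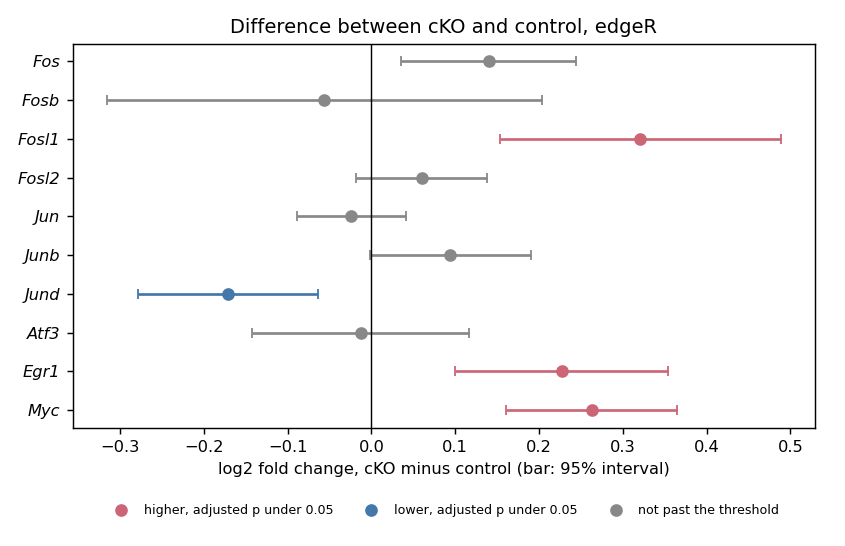
Log2 fold change of cKO over control from edgeR for each of the 10 genes, with its 95% interval. The intervals of Fosl1, Egr1 and Myc lie above 0 and that of Jund below 0, all past the threshold, and the interval of Fos lies above 0 from 0.04 to 0.24 without passing it after adjustment over all genes.

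**Figure D4:**
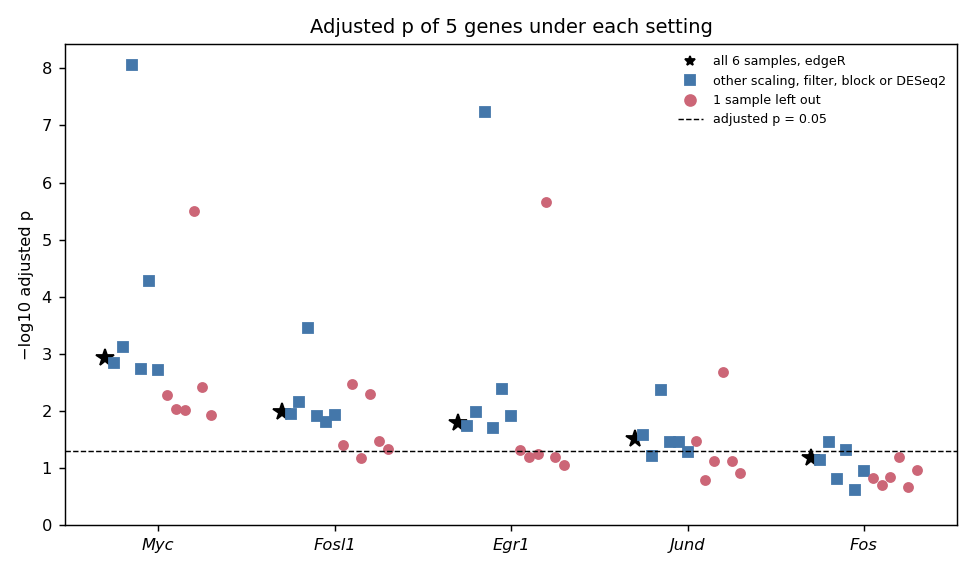
Adjusted p on a -log10 scale for the 4 genes past the threshold and Fos, for all 6 samples with edgeR (stars), for other scalings, filters, the replicate block and DESeq2 (squares) and with 1 sample left out (circles); the dashed line is an adjusted p of 0.05. All points of Myc lie above the line, 8 of 12 alternatives do for Egr1, and 6 of 12 for Jund.

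The CV was larger in cKO than in control for 9 of the 10 genes, Fosl1 being the exception, as it was for 60.6% of all genes tested. In cKO it exceeded counting error for all 10 genes, and in control it fell under counting error for 5. The highest sample was cKO replicate 2 for 6 of the 10 genes (Fos, Fosb, Fosl1, Fosl2, Egr1 and Myc), as it was for 25.0% of all genes tested and 60.1% of the genes called higher. The same sample had the highest summed macrophage, fibroblast and endothelial markers, at 383, 1878 and 40.7 CPM, and cKO replicate 1, the lowest cKO sample for Fosl1, Egr1 and Myc, had 342, 1711 and 35.1 CPM and the lowest Hira. cKO replicate 3 had the lowest of these sums in cKO, at 326, 1686 and 33.8 CPM. For Fosl1, Egr1 and Myc it lay between cKO replicates 1 and 2, while Junb and Atf3 were highest in cKO replicate 1. The part of these markers in the order of the cKO samples was not tested.

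The genes most like each of 5 members over the 6 samples were sought among 16640 other genes of at least 1 CPM, as the root mean square difference of centred log2 CPM. For Myc these were Fam234b (0.0183) and Tmeff2 (0.0204), and for Egr1 Ccnyl1 (0.0251) and Heg1 (0.0301). For Fos the closest was Mitd1 (0.0118), for Jun they were Zranb2 (0.0051) and Eif2b1 (0.0075), and for Atf3 Gm6997 (0.0180) and Tspyl5 (0.0212). None of them is another of the 10 genes. With 6 samples these are descriptions, with no test.

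Among other immediate early and early response genes, 20 rose. Of 39 tested of 40 listed, 20 were higher, 1 was lower and 18 did not pass the test, against 9.38% higher and 6.46% lower over all genes tested, with a median log2 fold change of 0.15. Egr4, with 4 to 9 counts per sample, did not pass the filter on low counts. The summed macrophage, fibroblast and endothelial markers given above were higher in the same cKO samples, and their part in this count was not tested. The largest rises were in Ptgs2, which encodes the inducible cyclooxygenase of prostaglandin synthesis, Ccn2, a matricellular growth factor, and Ier3, an early gene linked to cell survival. Ptgs2 went from 143, 136 and 138 CPM in control to 327, 385 and 354 CPM in cKO (log2 fold change 1.33, edgeR adjusted p = 1.37e-10). Ccn2 went from 417, 419 and 428 CPM to 839, 940 and 856 CPM (log2 fold change 1.04, edgeR adjusted p = 2.25e-10). Ier3 went from 15.1, 16.7 and 16.0 CPM to 27.0, 25.7 and 27.3 CPM (log2 fold change 0.72, edgeR adjusted p = 1.01e-07). In all 3 every cKO sample was above every control sample, as in 20.3% of all genes tested. Arc, known as a synaptic early gene, was the 1 that fell, from 19.2, 22.3 and 22.2 CPM to 19.1, 19.0 and 18.0 CPM (log2 fold change -0.21, edgeR adjusted p = 0.020), and it was not past the threshold without control replicate 2, control replicate 3 or cKO replicate 3. Egr2 and Egr3, the zinc finger relatives of Egr1, named here after their values were seen, had log2 fold changes of -0.01 and 0.04 with edgeR adjusted p of 0.941 and 0.869.

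Among genes with AP-1 sites in their control regions, 13 of 18 tested (19 listed, Mmp3 not tested) were higher and 1 was lower, where 9.38% and 6.46% of all genes tested were called higher and lower, with a median log2 fold change of 0.44. These genes encode proteases, their inhibitors, cytokines and growth factors that other cells of muscle also make, and 18 of 18 macrophage markers and 7 of 11 fibroblast markers rose in the same samples, with a median log2 fold change of 1.06 and 0.40 over the lists. The part of these markers in the count, whichever cells expressed them, was not tested. Ccl2, the monocyte attractant, went from 5.94, 6.73 and 6.82 CPM to 17.4, 18.2 and 15.5 CPM (log2 fold change 1.37, edgeR adjusted p = 5.24e-09). The gelatinase gene Mmp9 was scarce, at 0.141, 0.253 and 0.212 CPM in control and 0.375, 0.778 and 0.537 CPM in cKO (log2 fold change 1.46, edgeR adjusted p = 0.00607). The collagenase gene Mmp13 was also scarce, at 0.456 ± 0.101 CPM in control (SD, n = 3) against 1.05 ± 0.0646 CPM in cKO (SD, n = 3) (log2 fold change 1.19, edgeR adjusted p = 8.83e-04). All 3 had every cKO sample above every control sample, as did 20.3% of all genes tested. Spp1, which encodes osteopontin, was the 1 that fell, from 1633, 1691 and 1689 CPM to 1229, 1380 and 1317 CPM (log2 fold change -0.38, edgeR adjusted p = 4.20e-06).

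Of the bZIP factors of the AP-1, CREB, ATF and MAF families, 20 were tested of 22 listed (Batf and Batf2 had at most 5 counts per sample). Of these, 2 were higher, close to the 9.38% of all genes tested, and 5 were lower, against 6.46%, with a median log2 fold change of -0.06. Nfe2l3 fell from 2.32, 2.21 and 2.23 CPM to 1.59, 1.22 and 1.43 CPM (log2 fold change -0.71, edgeR adjusted p = 0.00144). Nfe2l2, which encodes the antioxidant regulator NRF2, fell from 154 CPM in each control to 134, 141 and 139 CPM (log2 fold change -0.18, edgeR adjusted p = 6.85e-04). Atf7, a relative of the JUN partner ATF2, fell by 0.24 on the log2 scale (edgeR adjusted p = 0.00924). In these 3 genes no cKO sample reached the control range. The small MAF gene Mafk rose from 59.0, 59.0 and 57.9 CPM to 65.9, 68.9 and 68.4 CPM (log2 fold change 0.18, edgeR adjusted p = 0.00124), and Creb3 rose by a log2 fold change of 0.19 (edgeR adjusted p = 0.0251). The count of higher genes was 4, beside 5 lower, with scaling to total counts alone, and it was also 4 with the filter at 1 CPM. It was 1 without control replicate 1, 2 or 3 or without cKO replicate 1 or 3.

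Upstream of the early genes the share of called genes was close to that over all genes tested. Of 25 MAP kinase pathway genes, SRF and ternary complex factors, 1 was higher, 2 were lower and 22 did not pass the test, against 9.38% higher and 6.46% lower over all genes, with a median log2 fold change of 0.01. Mrtfa, the actin-regulated coactivator of SRF, rose from 29.7, 29.9 and 28.3 CPM to 35.0, 42.3 and 36.6 CPM (log2 fold change 0.35, edgeR adjusted p = 4.52e-04). Rps6ka3, the kinase RSK2, fell from 45.6, 38.3 and 37.7 CPM to 26.6, 33.2 and 32.1 CPM (log2 fold change -0.42, edgeR adjusted p = 0.00125). Elk4, a ternary complex factor, fell from 53.6, 54.6 and 54.6 CPM to 48.4, 50.0 and 48.0 CPM (log2 fold change -0.18, edgeR adjusted p = 0.00197). The groups of these 3 genes did not overlap, nor did those of 31.4% of all genes tested. Counts of lower genes reached 4 without cKO replicate 2, and counts of higher genes reached 2 without cKO replicate 3. Of the pair of NAB corepressors that hold EGR1 in check, Nab2 was higher, at 43.1, 41.8 and 39.7 CPM against 46.0, 50.1 and 43.9 CPM (log2 fold change 0.15, edgeR adjusted p = 0.0475), and Nab1 had a log2 fold change of -0.03 (edgeR adjusted p = 0.70). Nab2 was not past the threshold with RLE size factors, with DESeq2, or without control replicate 2, control replicate 3 or cKO replicate 2.

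Around Myc, too, the counts were small and near the shares over all genes tested, of which 9.38% were higher and 6.46% lower. Of 13 partners and relatives in the MAX and MLX network, 1 was higher and 2 were lower, with a median log2 fold change of -0.003. Mycl, a paralog of Myc, fell from 93.7, 93.5 and 92.2 CPM to 77.7, 77.6 and 77.8 CPM (log2 fold change -0.29, edgeR adjusted p = 9.13e-06), the opposite direction to Myc. Mga, a MAX partner that represses MYC targets, fell from 171, 170 and 163 CPM to 155, 155 and 153 CPM (log2 fold change -0.15, edgeR adjusted p = 0.00393). Mxi1, a MAX partner that opposes MYC, rose from 15.8, 16.7 and 15.8 CPM to 19.7, 18.9 and 17.9 CPM (log2 fold change 0.20, edgeR adjusted p = 0.0142), and was not past the threshold without control replicate 1 or control replicate 3. The groups of these 3 genes did not overlap, nor did those of 31.4% of all genes tested.

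Of 20 genes known to be activated by MYC, 2 were higher, 2 were lower and 16 did not pass the test, again near the shares over all genes, with a median log2 fold change of 0.01. Ccnd2, the cyclin D2 gene, rose from 63.5, 60.0 and 56.1 CPM to 93.3, 112 and 101 CPM (log2 fold change 0.75, edgeR adjusted p = 2.20e-07). Srm, the spermidine synthase gene, rose from 49.9, 48.9 and 48.5 CPM to 53.7, 58.9 and 54.8 CPM (log2 fold change 0.16, edgeR adjusted p = 0.00918). Ncl, which encodes the nucleolar protein nucleolin, fell from 773, 672 and 649 CPM to 494, 635 and 586 CPM (log2 fold change -0.31, edgeR adjusted p = 0.00774). Tfrc, the transferrin receptor gene, fell from 446, 431 and 435 CPM to 409, 395 and 414 CPM (log2 fold change -0.13, edgeR adjusted p = 0.00952). The groups of these 4 genes did not overlap, nor did those of 31.4% of all genes tested. The count of higher genes was 1 without control replicate 2 or 3, and that of lower genes was 1 without control replicate 1.

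**Figure D5:**
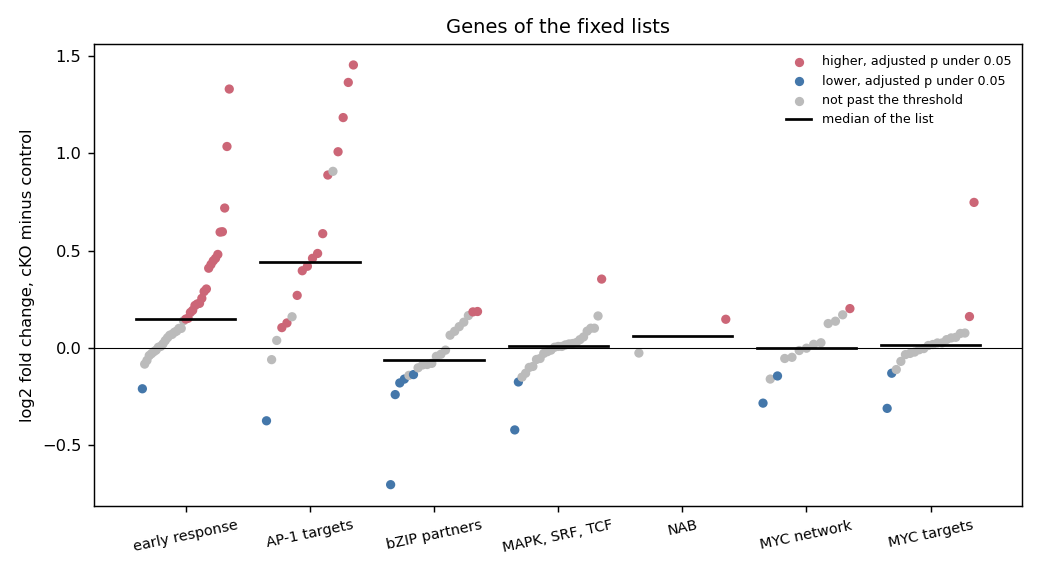
Log2 fold change of cKO over control for each tested gene of 7 lists, with the genes of a list in order of their value and the median as a line. The medians of the early response genes (0.15) and of the genes with AP-1 sites (0.44) lie above 0, that of the bZIP partners (-0.06) below it, and the other 4 within 0.06 of it.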

How the data were processed

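RNA was measured in 6 samples, 3 control and 3 cKO, grouped by their labels. The authors aligned single-end reads of 75 bp to mm10 with the unspliced aligner Bowtie2 2.3.4.2 and deposited raw counts per gene made with featureCounts 1.6.3. Reads over exon junctions are therefore lost: such windows are 12.4% of the Fosl1 transcript, at most 11.6% of the other 9 and none of the single-exon Jun, Junb and Jund. The authors' normalized table and their DESeq2 2.11.40.6 comparison (mean, log2 fold change, standard error and p-values) were not used. Libraries held 47944477 to 63323577 counts, and the coefficient of variation between replicates was 3.92%.

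Symbols and coordinates were taken from GENCODE M21, in which all 55536 identifiers were found. Genes were filtered (filterByExpr), scaled (TMM) and tested with edgeR 4.0.16 (quasi-likelihood test, with genotype in the model) under R 4.3.3, with Benjamini-Hochberg adjustment over 22404 genes and a threshold of 0.05. The test was tried on simulated counts. CPM were scaled to total counts, without TMM. Promoter windows came from RefSeq (GRCm38.p6). Alternatives were other scalings and filters, DESeq2 1.42.0, a replicate block, and leaving out each sample. The members and lists were chosen with earlier results of these data known. Named are all 10 members, Hira, and in each list up to 3 rises and 3 falls past the threshold whose higher group had 10 or more counts in each sample. Since the named list genes were picked by the test, groups of theirs that do not overlap are no separate evidence. For 5 members the genes with the closest pattern are also named, of which a single entry is not reported here. Figures were drawn with matplotlib 3.10.9 in Python 3.11.15.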

Additional observations from a re-analysis of the deposited data

How the results depend on the processing

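Myc was past the threshold under all 12 alternatives, Fosl1 under 11, Egr1 under 8, Jund under 6, Fos under 2, Junb under 1, and Fosb, Fosl2, Jun and Atf3 under none. The sign of the log2 fold change turned for Jun with total counts (0.00034), for Atf3 with total counts (0.011) and, with 1 sample left out, for Atf3 (-0.074 to 0.047, above 0 without control replicate 3, at 0.013, and without cKO replicate 2) and Fosb (-0.176 to 0.028, above 0 without cKO replicate 1). The number of the 10 genes higher in cKO was 1 to 3 with 1 sample left out, lowest without control replicate 3. The number lower was 0 with total counts and with the replicate block, and 0 to 1 with 1 sample left out. Scaling to total counts moved the median of all genes from -0.001 to 0.02 and the share of higher genes among those called from 59.2% to 70.0%.

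With 1 sample left out, 917 to 1673 genes were lower and 1571 to 2214 higher, and Hira had log2 fold changes from -0.52 to -0.29, with an edgeR adjusted p of 0.104 without control replicate 1 (log2 fold change -0.34). Among the lists, leaving out 1 sample gave 0 to 1 lower early response genes, 1 to 3 higher bZIP partners, 1 to 2 higher and 2 to 4 lower MAP kinase and SRF genes, 0 to 1 higher NAB genes, 0 to 1 higher MYC partners, and 1 to 2 higher and 1 to 3 lower MYC targets. Total counts and the filter at 1 CPM each gave 4 higher bZIP partners and 2 higher MAP kinase and SRF genes, no filter gave 4 lower MAP kinase and SRF genes, and size factors by RLE and DESeq2 each gave 0 higher NAB genes. The cause of these shifts was not tested.

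The labels number the replicates 1 to 3 in both groups, but the numbers did not pair the samples: deviations from the group means of same-numbered samples correlated at -0.198, -0.168 and -0.0536 over 6175 genes. With the replicate block 1901 genes were higher and 1251 lower, the edgeR adjusted p of Jund was 0.0526, and the calls of Myc, Egr1 and Fosl1 stayed past the threshold. Precision is limited by 3 samples a group, by counting error for Fosb and by the share of exonic bases that could be counted for Fosl1 and Jund.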
